A study of Homo sapiens with 3 samples.

Results

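The 36 genes described here are interferon-stimulated genes, the antiviral genes that cells switch on after interferon or after sensing foreign nucleic acid. They were chosen by name, as a set of well-known members of the type I interferon response, and all 36 were matched among the 52992 genes summed from the deposited transcript tables. The RNA came from TE5, a line derived from human esophageal squamous carcinoma, transfected either with a scrambled control (1 library) or with short hairpin RNA against KLF5, named shKLF5 (2 libraries), and harvested after 48 h. The labels number the shKLF5 libraries 1 and 2 without saying whether these are separate hairpins or separate cultures. P-values, standard errors and confidence intervals rest on how far apart this pair lies, a distance that may be technical. For each gene that distance is pooled with, and outweighed by, the spread of the pair over other genes. They also assume that the lone scramble library varies as the pair does. No untransfected library and no library of cells given interferon was analysed here, and the scramble library was itself transfected, so a response common to all transfected cells would not appear as a difference. The question is whether these genes were higher in the shKLF5 libraries than in scramble.

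In the classical pathway, type I interferon binds the receptor IFNAR1 and IFNAR2, the kinases JAK1 and TYK2 phosphorylate STAT proteins, and these join IRF9 in a complex that binds the interferon-stimulated response element in promoters. The products of the target genes block viral entry, degrade or trap viral RNA, sense more of it, and in the case of USP18 shut the receptor down. Short hairpin RNAs are double-stranded and have been reported to set off this pathway in some settings, which is why the genes are of interest in a knockdown experiment.

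The response element was looked for in the RefSeq promoters (GRCh38.p14, from 250 bases before to 50 after the start) as its core, GAAA, any 2 bases and GAAA again, on either strand, overlapping matches included. Of the 30 members found in that table, 21 (70.0%) had the core, against 1195 of all 27305 genes in the table (4.38%). Counted by window, since some genes have several starts, it was in 25 of 40 windows of members (62.5%) and in 1255 of all 35116 (3.57%). A match describes the letters and does not show a bound site. The windows below, each 30 bases in the direction of the gene with the core in capitals, are those of the 4 members with the most counts among genes that had the core, followed by ISG15 and IFIT1, which were added after the values were seen because they are the textbook members.
BST2, minus strand, chr19:17405738-17405767, 2 overlapping cores from 130 bases upstream: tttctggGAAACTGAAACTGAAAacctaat
IFITM3, minus strand, chr11:320893-320922, core from 52 bases upstream: caaatgccagGAAAAGGAAActgttgagaa
IFITM3, minus strand, chr11:320876-320905, core from 35 bases upstream: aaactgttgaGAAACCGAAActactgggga
OAS3, plus strand, chr12:112938321-112938350, core from 143 bases upstream: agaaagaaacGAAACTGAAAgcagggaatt
OAS3, plus strand, chr12:112938452-112938481, core from 12 bases upstream: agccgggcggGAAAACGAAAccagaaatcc
IFITM1, plus strand, chr11:313990-314019, core from 40 bases upstream: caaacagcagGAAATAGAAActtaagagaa
ISG15, plus strand, chr1:1013377-1013406, 2 overlapping cores from 113 bases upstream: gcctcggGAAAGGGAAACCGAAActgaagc
IFIT1, plus strand, chr10:89392497-89392526, core on the other strand from 116 bases upstream: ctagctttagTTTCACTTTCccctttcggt
IFIT1, plus strand, chr10:89392510-89392539, core on the other strand from 103 bases upstream: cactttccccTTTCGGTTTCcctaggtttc
IFITM1 holds a second core nearer its start. The first 4 genes shown were chosen for holding the core, so its presence in them is no result. The values of the 6 genes in the libraries, given below, lay on both sides of scramble. Of the 34 members that could be tested, the 20 with the core had a median log2 fold change of 0.14 and the 8 without it 0.47, and the 6 with no promoter in the table had 0.54.

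Scramble held 33448976 estimated counts, and shKLF5 libraries 1 and 2 held 33544752 and 32720563, the order used for every triple of values below, and at least 10 counts were found for 16993, 19389 and 19524 genes. KLF5 itself, the target, had 8402, 1333 and 1531 counts. All 6 markers of squamous epithelium were present in scramble, KRT5 with 142684 counts, and all 6 were lower in both shKLF5 libraries. Markers of leukocytes, a strong source of interferon, were scarce but higher by value under shKLF5: 4 of the 5 that could be tested were higher in both libraries, and the list summed to 133, 358 and 462 counts. CD68 gave 105, 231 and 306 of these, ITGAM 8, 72 and 108, with a log2 fold change of 3.07 (SE 0.77), the defining gene PTPRC 8, 24 and 11, and CD3E and LYZ were at 0 in scramble. CLEC4C, which defines plasmacytoid dendritic cells, had 1, 3 and 4 counts, and IL3RA, which they also express, 182, 276 and 446. Fibroblast markers summed to 1783, 2696 and 1600 counts, mostly COL1A1 with 1291, 2195 and 1495, and went different ways: PDGFRB had 3, 39 and 35, COL1A2 1, 18 and 15, and COL3A1 484, 435 and 48. The summed counts of endothelial markers were 87, 257 and 353. The RNA came from a cell line, so these counts do not show that such cells were present. The part of whatever changed these markers, or of the lower squamous genes, in the members' values was not tested.

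Most of the members were scarce in all 3 libraries. In TPM, a level corrected for transcript length and scaled to one sum in every library, the median member stood at 1.12, 1.998 and 1.62, and 15, 12 and 12 of the 36 were below 1. A handful of membrane proteins made up most of the sum: BST2, IFITM3 and IFITM1 together gave 240 of 318 TPM in scramble (75.6%), 285 of 413 in library 1 (69.1%) and 165 of 296 in library 2 (55.7%). The other 33 members summed to 77.5, 128 and 131 TPM. That scale does not equalise the bulk of genes between libraries. In log2(TPM + 1), genes with a mean TPM of at least 1 had a median difference of 0.31 under shKLF5. The 22 members among these genes had 0.37. Mitochondrial genes held 39.3%, 32.2% and 35.9% of the counts. Above 10 TPM were 4 members in scramble, namely IFITM3, BST2, IFITM1 and STAT2, and these plus IRF9 and IFI35 in both shKLF5 libraries. At the other end, IFI27, RSAD2, CMPK2, OASL and IFI44L were at 0.280 TPM or less in every library.

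**Figure D1:**
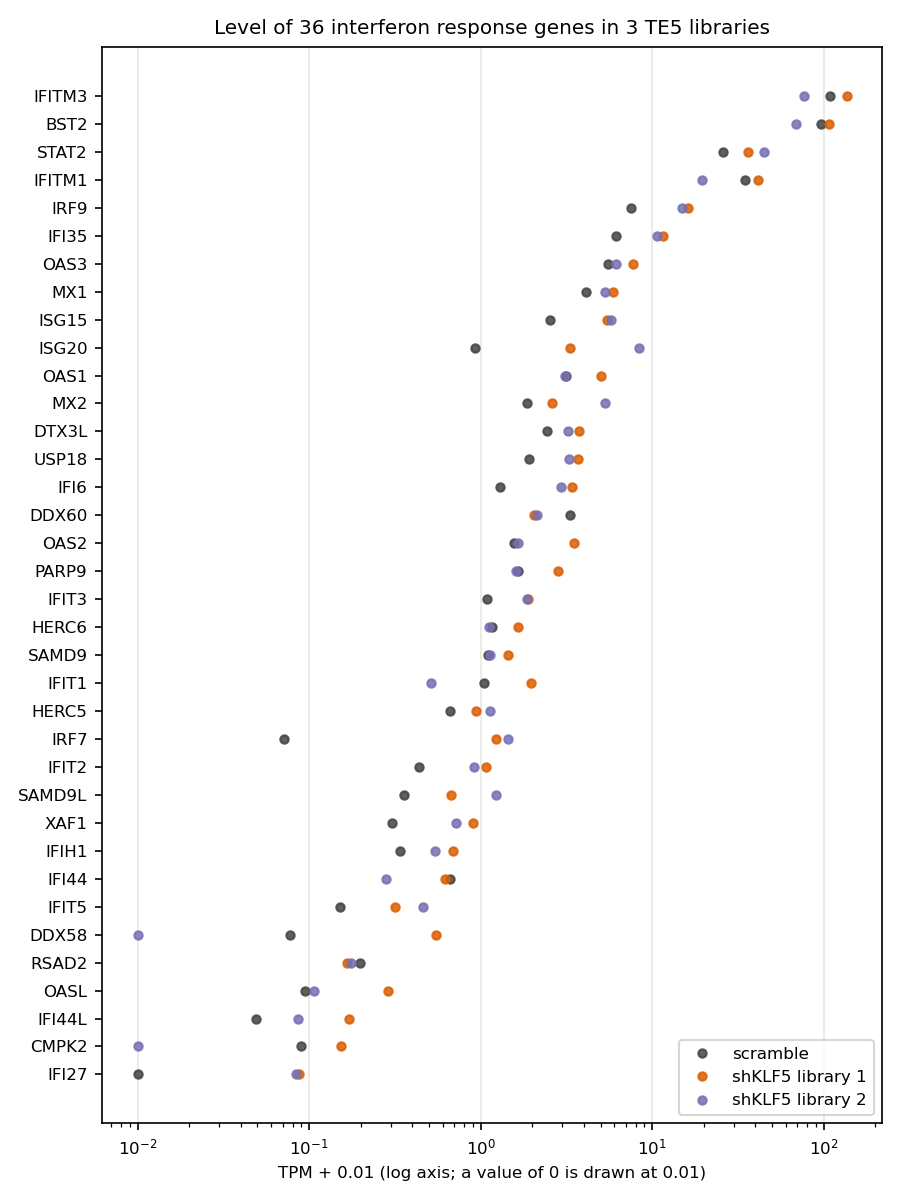
Level of each of the 36 members in TPM (log axis, drawn as TPM + 0.01) in scramble and the 2 shKLF5 libraries, 1 point per library. IFITM3 and BST2 lead at 76.3 to 136 and 69.0 to 108 TPM, and most other members lie below 10.

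No member passed the test. With edgeR's quasi-likelihood test and Benjamini-Hochberg adjustment over all 20629 genes tested, 0 of the 34 tested members reached an adjusted p under 0.05, and the share over all genes was also 0% (0 genes). IFI27 and CMPK2 had too few counts to be tested. The target KLF5, at a log2 fold change of -2.96 (SE 0.34), did not pass this edgeR test either. A member that did not pass is therefore not shown to be unchanged. The smallest adjusted p among the members was 0.466 by that edgeR test. At an unadjusted p under 0.05, 2 members were higher, IRF7 and ISG20, and 0 were lower, beside 5.68% of all genes higher and 3.5% lower. DESeq2 called 118 genes in all (0.572%) and edgeR's older fitting method 21 (0.102%), with 0 members in either.

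By value, 18 of the 34 tested members were higher in both shKLF5 libraries, 6 were lower in both and 10 went opposite ways. Over all genes tested, 37.9% were higher in both, 36.5% lower in both and 25.5% mixed. Taken alone, library 1 was above scramble for 27 and below it for 7, and library 2 for 19 and 15. The share of all genes was not counted for a single library. The median log2 ratio of all genes tested was -0.003 in library 1 and 0.03 in library 2. For genes with a mean under 5 CPM, where 21 of the members lie, it was 0.33 and 0.44. The 2 comparisons share the scramble library, so their agreement carries no independent weight. The median log2 fold change of the members was 0.24 on the TMM scale, which equalises the bulk of genes between libraries, against 0.04 for all genes. When libraries were scaled by size alone both moved up, to 0.67 and 0.47, so that the members stood 0.20 above the typical gene either way. With no filter on low counts, which brings in many scarce genes, they stood at 0.20 and all genes at 0.33. Scaled by size alone, 26 members were higher in both libraries and 0 lower in both. The share of all genes was not counted on that scale, where their median was 0.47, so these 2 counts have no background beside them.

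Abundance moved with this result. The 21 members with a mean under 5 CPM (counts scaled to library totals adjusted by TMM, as are all CPM here) had a median of 0.53, and 57.1% of them were higher in both libraries. All 9612 tested genes of that abundance had a median of 0.48, with 54.5% higher in both. Lower in both were 4.76% of these members and 20.2% of these genes. Among the 8 members at 5 to 20 CPM the median was 0.18, against -0.10 for all 3951 genes there. Higher in both were 62.5% against 29.2%, and lower in both 25% against 44.3%. The 5 members at 20 CPM or more had a median of -0.51, against -0.19 for all 7066. There 20% against 20.2% were higher in both, and 60% against 54.4% lower in both. Scarce members were thus higher by about as much as scarce genes in general. Members at 5 to 20 CPM lay above genes of their abundance by median. The shKLF5 libraries also held more genes with at least 10 counts. The part of abundance or of that difference between libraries in the members' values was not tested.

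**Figure D2:**
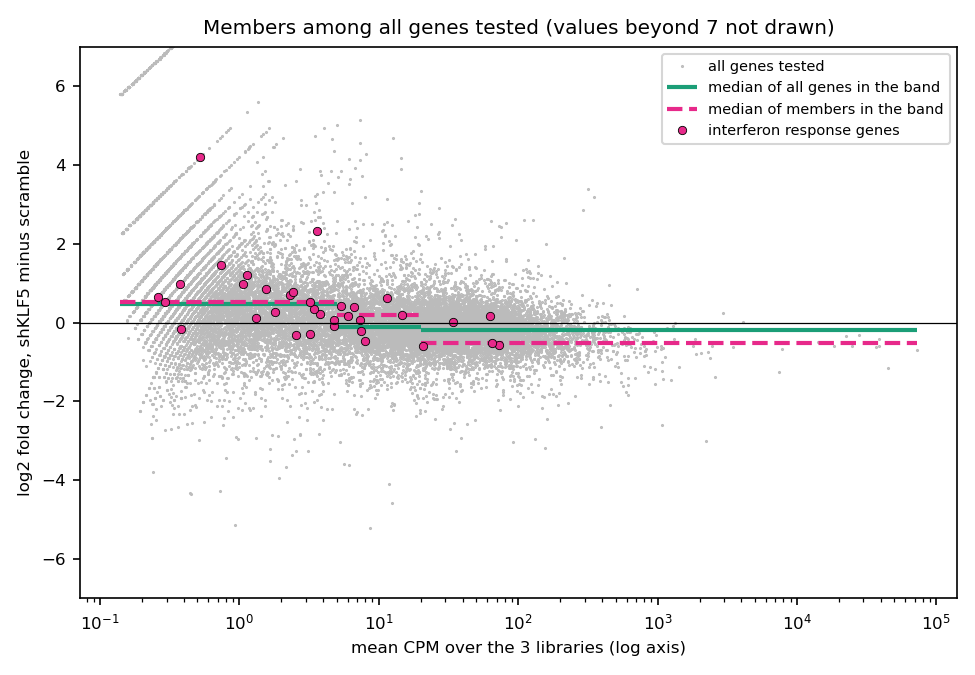
Log2 fold change (shKLF5 minus scramble) against mean CPM (log axis) for all tested genes in grey and the members in pink, with the medians of 3 abundance bands drawn as solid (all genes) and dashed (members) lines. In the band under 5 CPM the lines nearly coincide, at 0.48 and 0.53.

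The membrane restriction factors, the most abundant members, had lower values than scramble in libraries 1 and 2 alike on the TMM scale. BST2, or tetherin (ENSG00000130303; GRCh38 chromosome 19, 17402939 to 17405648), which holds budding virions on the cell surface, had 2462 counts under scramble, then 2688 and 1727 in libraries 1 and 2, that is 92.6 CPM under scramble and a mean of 62.3 ± 17.9 CPM (SD, n = 2) under shKLF5. IFITM3 (ENSG00000142089; chromosome 11, 319669 to 327537), which blocks viral fusion in endosomes, had 2153, 2504 and 1534 counts, that is 81.0 CPM under scramble and a mean of 57.0 ± 18.2 CPM (SD, n = 2) under shKLF5. IFITM1 (ENSG00000185885; chromosome 11, 313506 to 315272), its relative at the plasma membrane, had 705, 838 and 416 counts, that is 26.5 CPM under scramble and a mean of 17.7 ± 8.08 CPM (SD, n = 2) under shKLF5. For each of the 3, library 2 was the lowest, and library 1 lay between it and scramble in TMM-scaled CPM but above scramble in raw counts and in TPM.

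Their log2 fold changes were -0.57 (SE 0.39) for BST2, -0.51 (SE 0.40) for IFITM3 and -0.59 (SE 0.48) for IFITM1, each with a 95% confidence interval that spans 0. Scaled by library size alone they were -0.14, -0.08 and -0.16, with library 1 no longer below scramble. The upper interval bounds were 0.32, 0.42 and 0.52, so a doubling of any of them lies outside its interval. IFITM1, IFITM2 and IFITM3 are related neighbours, and IFITM1 lies wholly inside the annotated span of IFITM2, so reads may have been divided among them. In BST2, 98.1 to 99.3% of counts fell in 1 transcript, BST2-201, with 2438, 2668 and 1694 counts. IFITM3-201 took 93.8 to 99.8%, and the remaining coding transcript, IFITM3-202, had 33.6, 149 and 0 counts.

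All 3 transcription factors of the pathway were higher by value in both libraries. STAT2 (ENSG00000170581; chromosome 12, 56341597 to 56360155) had 1549, 2093 and 2529 counts, that is 58.3 CPM under scramble and a mean of 65.6 ± 10.1 CPM (SD, n = 2) under shKLF5, and the fitted log2 difference was 0.17 (SE 0.37). Library 1, at 58.4 CPM, lay next to scramble, and library 2, at 72.7 CPM, above it. IRF9 (ENSG00000213928; chromosome 14, 24161053 to 24166565), the DNA-binding partner of STAT2, had 221, 447 and 465 counts, that is 8.31 CPM under scramble and a mean of 12.9 ± 0.636 CPM (SD, n = 2) under shKLF5. Both shKLF5 libraries were above scramble by a margin wider than the gap between them, and the log2 fold change was 0.64 (SE 0.44, adjusted p = 0.678 by edgeR).

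IRF7 (ENSG00000185507; chromosome 11, 612553 to 615999), the factor that amplifies interferon production, had 1 count in scramble, 28 in library 1 and 26 in library 2. It was picked out after its values were seen, being 1 of the pair with an unadjusted p below the threshold, and its adjusted p was 0.466 by edgeR. The ratio of CPM was 20.8 in library 1 (95% exact counting interval 3.43 to 849) and 19.9 in library 2 (3.27 to 815), intervals that cover counting error only. Less of this signal was assigned to transcripts that encode the protein than to others. Protein-coding transcripts of IRF7 held 0, 10.2 and 3.3 estimated counts, while those annotated as retained introns or targets of nonsense-mediated decay held 1.0, 17.8 and 22.7.

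The same division by transcript class set apart several other members. Among IRF9 counts, 17.7%, 25.3% and 30.8% in scramble and libraries 1 and 2 lay in coding transcripts, 39.3, 113 and 143 counts, and over coding transcripts alone the log2 fold change was 1.44 in place of 0.64 (adjusted p = 0.648 by edgeR). The IRF9 locus also lies inside a second annotated coding gene on the same strand, AL136295.5, so its reads may be split with that gene. For STAT2 the coding share was 47.7%, 52.1% and 46.6%, with 581, 876 and 901 counts in STAT2-201, the main coding form, 158, 216 and 277 in STAT2-202, and 630, 759 and 1004 in the noncoding STAT2-207. MX2 had no estimated count in any coding transcript in the 3 libraries: all of its 91, 111 and 169 counts were assigned to retained-intron and processed transcripts. Reads that transcripts share are divided by estimate. Its gene total is therefore not shown to describe an mRNA for the protein, and such an mRNA is not shown to be absent. XAF1, a proapoptotic partner of XIAP, had 4.0, 32.7 and 30.9 coding counts of a total of 16, 47 and 51. By contrast 20 of the 28 members with at least 10 counts in every library had over 90% of their counts in coding transcripts in each. Over coding transcripts alone, 31 members could be tested, 19 were higher in both libraries and 5 lower in both, beside 37.4% and 36.5% of all genes, with a median of 0.36 against 0.03 for all genes.

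**Figure D3:**
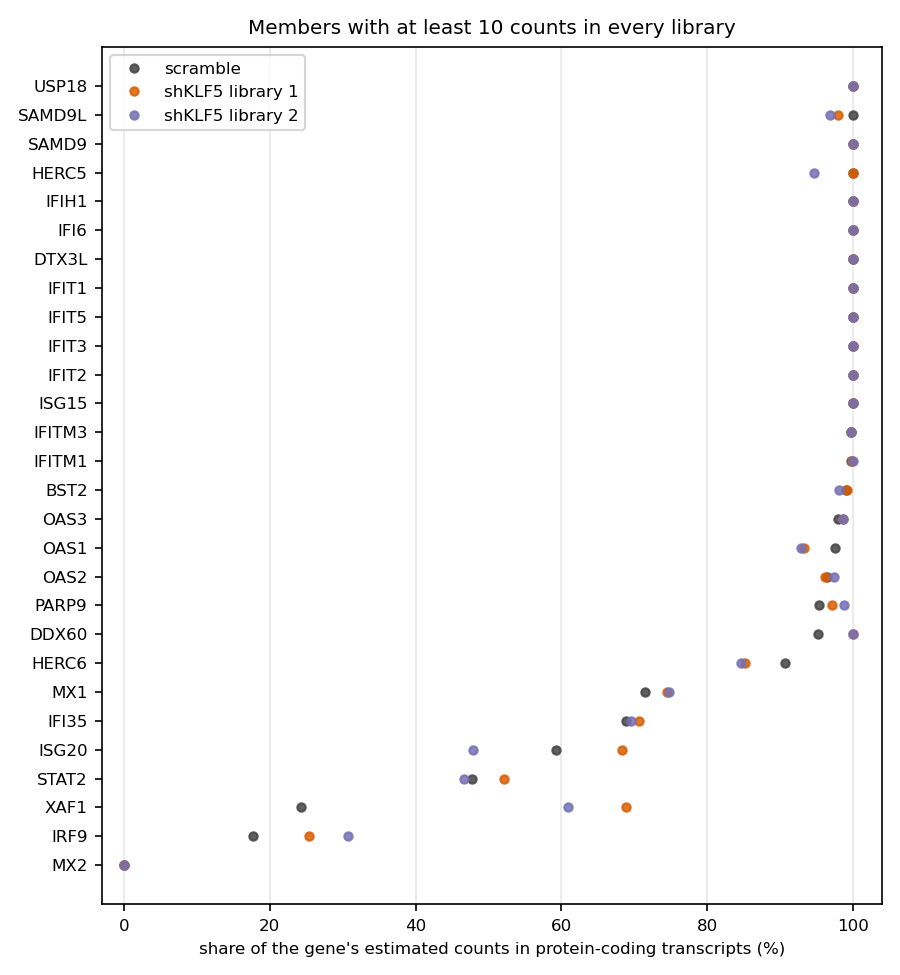
Share of each gene's estimated counts that was assigned to transcripts annotated as protein-coding, in percent, for the 28 members with at least 10 counts in every library, 1 point per library. Most members lie above 90%, while IRF9 lies between 17.7% and 30.8% and MX2 at 0% in all 3.

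The oligoadenylate synthetases, which make a second messenger in response to double-stranded RNA, went opposite ways in the 2 libraries on the TMM scale. OAS3 (ENSG00000111331; chromosome 12, 112938352 to 112973249), the enzyme of this family with the most counts, had 906, 1319 and 1107 counts, that is 34.1 CPM under scramble and a mean of 34.3 ± 3.52 CPM (SD, n = 2) under shKLF5. Its log2 fold change of 0.01 (SE 0.37), which was -0.12 with length-scaled TPM, has a 95% interval from -0.86 to 0.88, and nearly all of its counts lay in OAS3-201 (877, 1288 and 1078), with 7.62, 9.59 and 12.8 in the next coding form, OAS3-205. OAS1 had 131, 200 and 130 counts, with a fitted log2 difference of -0.08 (SE 0.52) on the TMM scale and 0.35 by library size alone. OAS2 had 123, 230 and 115 counts and 0.07 (SE 0.57). OASL, a relative without synthetase activity, had 5, 16 and 5 counts. For all 4 of these genes library 1 was above scramble and library 2 below it in TMM-scaled CPM. In TPM library 2 lay above scramble for OAS3 (5.48, 7.73 and 6.17), OAS2 (1.56, 3.48 and 1.64) and OASL (0.0840, 0.280 and 0.0966) and below it for OAS1 (3.14, 5.01 and 3.10). By library size alone OAS3 stood at 0.44.

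MX1 and MX2 encode dynamin-like GTPases that trap viral nucleocapsids. MX1 (ENSG00000157601; chromosome 21, 41420304 to 41459214), often used as the readout of an interferon response, had 148, 210 and 233 counts, that is 5.57 CPM under scramble and a mean of 6.28 ± 0.595 CPM (SD, n = 2) under shKLF5. The log2 fold change was 0.17 (SE 0.48, 95% interval -0.94 to 1.28), and -0.016 with length-scaled TPM. MX2 stood at 0.22 (SE 0.55), below scramble in library 1 and above it in library 2, with the reservation on its transcripts given above.

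The IFIT proteins bind foreign RNA ends and stall their translation, and 3 of the 4 were higher by value in both libraries. IFIT3 (ENSG00000119917; chromosome 10, 89327894 to 89340971) had 77, 129 and 133 counts, that is 2.90 CPM under scramble and a mean of 3.71 ± 0.159 CPM (SD, n = 2) under shKLF5, and the fitted log2 difference was 0.36 (SE 0.53). Within it, IFIT3-201 had 0, 86.7 and 79.0 counts and IFIT3-202 had 77.4, 41.8 and 54.2, so the assignment between its coding forms differed between scramble and the shKLF5 libraries. IFIT2 had 44, 106 and 94 counts and IFIT5 17, 35 and 54. IFIT1 had 78, 129 and 40 counts and lay on both sides of scramble, at 0.29 in library 1 and -1.31 in library 2 on the log2 scale. IFIT1, IFIT2 and IFIT3 lie within the annotated span of LIPA on the opposite strand, and the use of strand in counting is not given in the sources used here.

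ISG15 is a ubiquitin-like modifier, HERC5 and HERC6 belong to the family of ligases that attach it, and USP18 removes it and also silences the receptor. USP18 (ENSG00000184979; chromosome 22, 18149899 to 18177397) had 116, 216 and 199 counts, that is 4.36 CPM under scramble and a mean of 5.88 ± 0.215 CPM (SD, n = 2) under shKLF5, and the fitted log2 difference was 0.43 (SE 0.49). Both shKLF5 libraries lay above scramble and close together. HERC6 had 97, 116 and 96 counts and -0.28 (SE 0.52), lower in both libraries on the TMM scale but at 0.15 when scaled by library size alone. ISG15 (ENSG00000187608; chromosome 1, 1001138 to 1014540) had 43, 89 and 98 counts, and HERC5 had 42, 58 and 76. ISG15, all of whose counts lie in 1 transcript, stood at 1.62 CPM under scramble and a mean of 2.65 ± 0.237 CPM (SD, n = 2) under shKLF5, with a 95% interval for the log2 fold change of -0.61 to 2.04.

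The cytosolic RNA sensors gave no common direction. DDX60, a helicase that acts with RIG-I, had 260, 284 and 217 counts, with a fitted log2 difference of -0.47 (SE 0.46), lower in both libraries. IFIH1, the long double-strand sensor MDA5, had 33, 54 and 41 counts. DDX58, which encodes RIG-I, had 9, 67 and 0 counts, so library 1 lay above scramble and library 2 below it, further from each other than either lay from scramble. All of the DDX58 counts were in 1 of its 2 listed transcripts, DDX58-202. A count of 0 in library 2 allows up to 3 counts, or 0.0863 CPM, for counting error only.

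Among the nucleotide and RNA antivirals, ISG20 (ENSG00000172183; chromosome 15, 88636153 to 88656483), an exonuclease that degrades viral RNA, had 26, 89 and 256 counts, that is 0.978 CPM under scramble and a mean of 4.92 ± 3.45 CPM (SD, n = 2) under shKLF5. It had the highest fold change of the members named by count, 2.54-fold in library 1 and 7.53-fold in library 2, with a log2 fold change of 2.33 (SE 0.82, 95% interval 0.44 to 4.21, adjusted p = 0.476 by edgeR). Over the alternatives listed in the processing the adjusted p of ISG20 ran from 0.289 to 0.973. Of its counts 59.3%, 68.4% and 47.8% lay in coding transcripts, and over these alone the log2 fold change was 2.35. RSAD2, or viperin, had 6, 9 and 14 counts, and CMPK2, its neighbour that feeds it nucleotide, had 2, 5 and 0. Both are among the members at 0.280 TPM or less.

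Of the remaining pairs, SAMD9 and SAMD9L, neighbours on chromosome 7 that restrict poxviruses, stood at -0.21 (SE 0.47) and 0.53 (SE 0.58). SAMD9 had 218, 286 and 216 counts and SAMD9L had 66, 99 and 153. SAMD9 was lower in both libraries on the TMM scale and at 0.22 when scaled by library size alone. PARP9 and DTX3L, partners in a complex of ADP-ribosylation and ubiquitin ligation, share a promoter region and overlap head to head from 122564238 to 122564577 on chromosome 3. PARP9 had 190, 315 and 215 counts, with a fitted log2 difference of 0.07 (SE 0.48) that was -0.023 with length-scaled TPM, and DTX3L had 357, 514 and 568 counts and 0.19 (SE 0.42). In library 2 PARP9 was below scramble and DTX3L above it.

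IFI35, a regulator of innate signalling, had 144, 273 and 235 counts, that is 5.42 CPM under scramble and a mean of 7.19 ± 0.608 CPM (SD, n = 2) under shKLF5, and the fitted log2 difference was 0.41 (SE 0.48). IFI6, a mitochondrial protein, had 27, 68 and 61 counts, and XAF1 stood at 0.602 CPM under scramble and a mean of 1.39 ± 0.110 CPM (SD, n = 2) under shKLF5. Both were higher in each shKLF5 library than in scramble, and the log2 fold changes of 0.84 (SE 0.61) and 1.20 (SE 0.66) did not pass. Over coding transcripts alone XAF1 stood at 2.69 (adjusted p = 0.648 by edgeR). IFI44 had 11, 19 and 7 counts, IFI44L 6, 20 and 12, and IFI27 0, 1 and 1. All but 1.2 of the IFI44L counts, in the 3 libraries together, lay in noncoding transcripts.

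**Figure D4:**
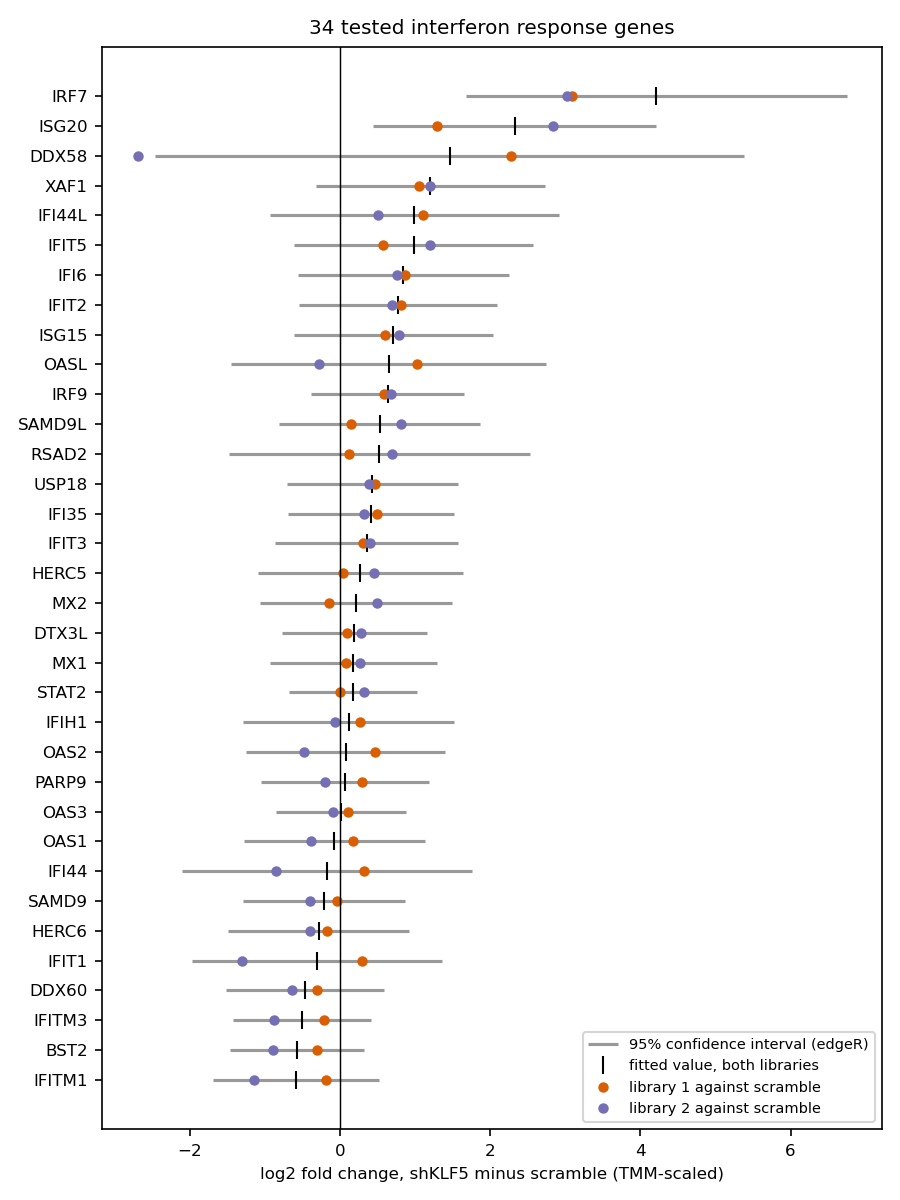
Log2 fold change (shKLF5 minus scramble, TMM scale) of the 34 tested members, with the fitted value as a tick, its 95% confidence interval as a bar and each library's own value against the shared scramble library as points. Intervals of IRF7 and ISG20 lie above 0 before adjustment, and those of the other 32 span 0.

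The intervals set what could be seen at this depth. Of the 34 tested members, 7 had an upper bound below a 2-fold rise and 23 below a 4-fold rise, while the standard errors ran from 0.37 to 1.70 on the log2 scale. For scarce members such as ISG15, IFIT2 and IFI6 a 4-fold rise is therefore not outside the interval. Library 2 gave a lower value than library 1 for 21 of the 34, and the share over all genes was not counted.

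Upstream of the members, interferon transcripts were scarce in every library. Of 10 ligand genes only IFNE, an epithelial type I interferon, could be tested, with 21, 29 and 27 counts and a fitted log2 difference of 0.01 (SE 0.64). IFNB1, the interferon first made by non-immune cells after RNA sensing, had 1, 4 and 1 counts, and IFNL1, a type III interferon of epithelia, had 1, 2 and 0. The 10 genes summed to 23, 36 and 38 counts.

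The receptors and kinases were expressed, and none of the 6 receptor genes or the 5 JAK and STAT genes passed the test. IFNAR1 had 808, 1199 and 465 counts and IFNAR2 231, 305 and 227, with log2 fold changes of -0.38 (SE 0.54) and -0.21 (SE 0.46). IFNAR1, IL10RB (-0.59, SE 0.49) and IFNLR1 (-0.23, SE 0.43), which serve type I and type III interferons, each had the lowest level in library 2. IFNGR2 stood at 0.35 (SE 0.39). JAK1 had 257, 449 and 882 counts and 0.97 (SE 0.53), and TYK2 had 2199, 3572 and 3443 counts and 0.26 (SE 0.35). JAK2 stood at -0.80 (SE 0.51).

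Of 13 sensors, adaptors and effectors, 6 were higher (46.2%) and 4 lower (30.8%) by value in both libraries, beside 37.9% and 36.5% of all genes tested. The median was 0.04, with 0 past the adjusted threshold. CGAS, the DNA sensor, had a fitted log2 difference of 1.66 (SE 0.85). TICAM1, the adaptor of TLR3, stood at 0.69 (SE 0.40), and ZC3HAV1, the antiviral protein ZAP, at -0.74 (SE 0.41). Among 6 tested IRF genes outside the members the median was 0.09. IRF1, an early target of interferon gamma and of NF-kB, had 330, 746 and 984 counts and stood at 0.98 (SE 0.43), and IRF3 stood at -0.20. IRF4 had 0, 3 and 17 counts. In library 2 its CPM was 4.33 times a scramble floor of 3 counts, which allows for counting error in scramble only. Feedback inhibitors had a median of -0.16, with SOCS1 at 0.19, SOCS3 at -0.23, PIAS1 at -0.16 and PTPN6 at -0.16.

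Among targets typical of interferon gamma, 9 of 12 could be tested, with a median of -0.03 and 0 past the adjusted threshold. In both libraries 2 were higher (22.2%) and 4 lower (44.4%), beside 37.9% higher and 36.5% lower of all genes tested. GBP5 stood at -1.76 (SE 1.05), CIITA at -0.69 (SE 0.49), ICAM1 at -0.66 (SE 0.56) and GBP4 at 0.71 (SE 0.65). A further 28 interferon-stimulated genes gave 24 tested, 13 higher (54.2%) and 6 lower (25%) in both, beside the same shares of all genes. Of the 24, 0 passed the adjusted threshold, and the median was 0.23, close to the 0.24 of the members. At an unadjusted p under 0.05, 5 of these 24 were higher and 0 lower, beside 5.68% of all genes higher and 3.5% lower. TRIM22, an antiviral ubiquitin ligase, had 59, 249 and 263 counts and 1.71 (SE 0.53), HELZ2, a helicase coactivator, had 457, 1160 and 1730 and 1.26 (SE 0.44), and SLFN5 had 1005, 2062 and 3342 and 1.02 (SE 0.44). RTP4 had 0, 12 and 14 counts, in CPM 2.97 and 3.57 times a scramble floor of 3 counts in libraries 1 and 2. These folds allow for counting error in scramble only, so they are not lower bounds. The fifth, picked only once its values were known, was PHF11 with 1, 12 and 10 counts.

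**Figure D5:**
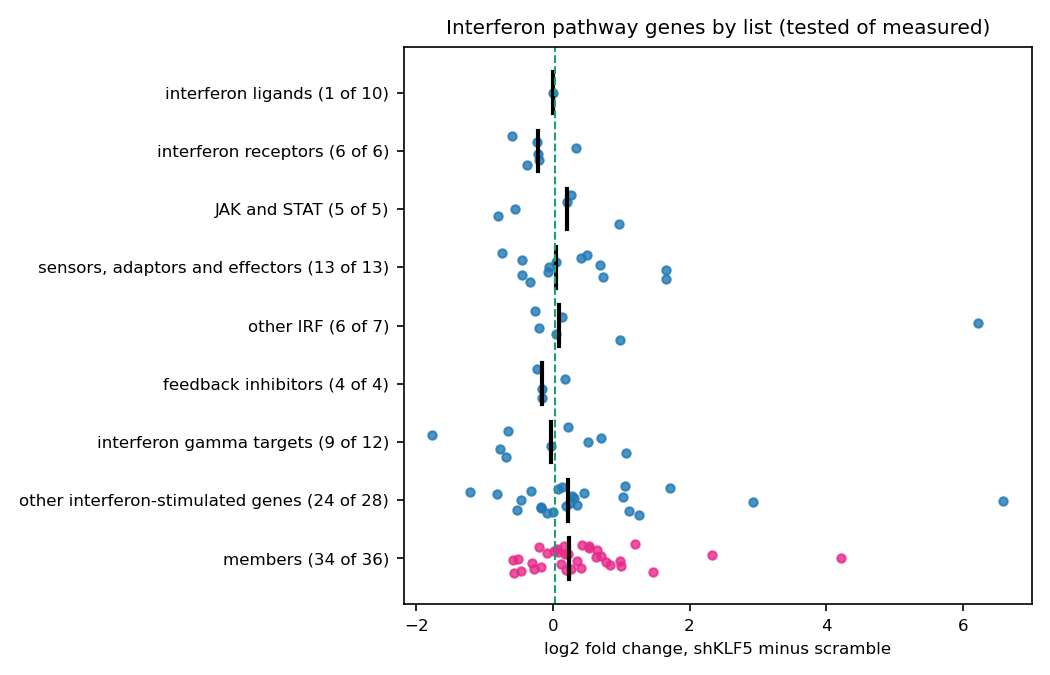
Log2 fold change (shKLF5 minus scramble) of tested genes in each pathway list, 1 point per gene, with list medians as black bars and the median of all tested genes as a dashed line. Medians run from -0.22 (receptors) to 0.24 (members), and the points of every list with more than 1 tested gene lie on both sides of 0.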

How the data were processed

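The authors deposited 1 kallisto table per library. The submitters' processing notes name kallisto, DESeq2 and hg19, with no versions. Per the file headers, the deposited counts are estimated counts (expected counts) for each transcript, without normalisation. Per the file headers, the deposited TPM correct for effective length. How the index was built and whether strand was used is not given in the sources used here.

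Of 196354 transcripts, 181857 were matched by identifier to GENCODE 29 (GRCh38, whose coordinates are printed for genes); the others held 3.05 to 3.42% of counts and were left out. Counts were summed per gene, rounded and tested in R 4.3.3 with edgeR 4.0.16: filterByExpr, TMM, glmQLFit with legacy = FALSE, glmQLFTest, Benjamini-Hochberg adjustment over 20629 genes, threshold 0.05. There was 1 residual degree of freedom per gene, and the fit added a prior of 6.86 degrees of freedom taken from the spread over all genes. The SE was taken as the size of the log2 fold change over the root of F. Values of single libraries used a prior count of 2, or plain CPM ratios where given as folds.

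Alternatives were median-ratio factors, library size alone, no filter, a mean CPM of at least 5, the legacy fit, DESeq2 1.42.0, limma 3.58.1 on log2(TPM + 1) with a mean TPM of at least 1, length-scaled TPM and each shKLF5 library left out; loess correction for abundance and coding transcripts only were added after seeing the data. Members, lists and tests were chosen with earlier results of these data known. Named in full were the 20 members with the most counts among those reaching 100 in a library, and up to 4 genes per pathway list with the smallest p plus IFNB1, IFNL1, IFNAR1, IFNAR2, JAK1 and TYK2; some genes of these lists are not reported here. IKBKE was not matched and is not analysed here. Reads carried no molecular identifiers, so floors and counting intervals cover counting error only.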

Additional observations from a re-analysis of the deposited data

How the results depend on the processing

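Over the alternatives, 0 members were called, the smallest adjusted p of any member being 0.237 (IRF7, legacy fit). Genes called among all tested numbered 0 by edgeR's test, 21 by the legacy fit and 118 by DESeq2. The members' median, 0.242 by that test, was 0.232 with median-ratio factors, 0.669 with library size alone, 0.202 with no filter, 0.206 with DESeq2, 0.372 with limma, 0.291 with length-scaled TPM, 0.191 after loess correction and 0.356 over coding transcripts, and 0.293 to 0.299 with 1 shKLF5 library left out. Relative to all genes it was 0.203 by the edgeR test, 0.063 with limma, where the median of all genes was 0.309, and -0.129 with no filter, where it was 0.331. Against 18 of 34 members higher in both libraries, it was 26 with library size alone and 7 of 13 at a mean CPM of at least 5; the 6 lower in both became 0 with library size alone and 1 of 22 with limma. With 1 shKLF5 library left out, 19 to 27 were higher and 7 to 15 lower, the 15 without library 1. For the alternatives in these counts, the share of all genes higher or lower was not counted.

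Among the 20 members named by count, reversed signs were SAMD9 (0.221), OAS1 (0.349) and HERC6 (0.146) with library size alone and 0.120, 0.260 and 0.136 with limma; OAS3 with no filter (-0.030), DESeq2 (-0.025) and length-scaled TPM (-0.119); and PARP9 (-0.023) and MX1 (-0.016) with length-scaled TPM. Among the other members, IFIT1 (0.127) and IFI44 (0.254) reversed with library size alone, OASL (-0.173), IFIH1 (-0.116) and RSAD2 (-0.209) after loess correction and IFI44 (0.103) over coding transcripts; other settings were not tallied for these. The cause was not tested. No paired analysis was possible because scramble has 1 library and no number in the labels.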
